A study of Mus musculus with 6 samples.

Results

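Expression of the ErbB receptor genes and of the genes for their EGF family ligands was measured in pancreatic cancer samples of mice with and without Msi1. Probe sets annotated to a single symbol of a list of 10 genes were taken, and where a gene had several, the one with the highest mean over the 6 arrays was used. Of the 10 genes 9 were found, with 20 probe sets in all, among 18193 genes with 34945 such probe sets on the array. They were the 3 receptor genes Egfr, Erbb2 and Erbb3 and the 6 ligand genes Ereg, Hbegf, Tgfa, Btc, Epgn and Nrg1. Areg was not analysed here.

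Each Msi1 KO sample and each wt sample carried the tumour alleles that the labels spell KeasG12D/+;p53f/f;ptf1a-Cre, on the C57BL/6 strain, at 11 weeks of age. The 3 Msi1 KO samples had the genotype Msi1 -/-, and the 3 wt samples were wild type at Msi1. In such mice Cre is made from the gene of the pancreatic transcription factor Ptf1a, so the tumour alleles are recombined in cells of the pancreatic lineage. Nothing in the labels states that the samples came from separate animals. The p-values therefore reflect only how far these samples spread, and the number of arrays limits the precision. The spread may be technical in whole or in part within Msi1 KO arrays. Within wt arrays it may be so in part, since wt replicate 3 differed from the others in its sex-linked transcripts, as given below.

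ErbB receptors are receptor tyrosine kinases. A ligand with an EGF-like domain brings receptors together in pairs, and the paired kinases then activate RAS and MAP kinase signalling and PI3 kinase signalling. Erbb2 has no known ligand of its own and acts as the partner of other receptors, whereas Erbb3 binds neuregulins and has a weak kinase that needs a partner. The ligands are made as membrane proteins and are released by metalloproteases. In the pancreas Egfr is known to be needed for tumours to form from acinar cells in mouse models.

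In the RefSeq table of mouse assembly GRCm38.p6, Epgn, Ereg, Areg and Btc are consecutive protein-coding genes on chromosome 5. RefSeq promoter entries of the same build were held for 5 of the 9 measured genes. The 250 bases upstream of the annotated start are shown 5′ to 3′ on the gene's strand for the 4 of them that gave signal above background, so that the sequence upstream of 2 receptors and 2 ligands can be set beside their values. Capitals mark GGGCGG on either strand, the GC box bound by Sp1 family factors. The windows lie at chr11:16751953-16752202 on the plus strand for Egfr, chr11:98412234-98412483 on the plus strand for Erbb2, chr6:86194972-86195221 on the plus strand for Tgfa and chr5:91402995-91403244 on the minus strand for Btc.
Egfr: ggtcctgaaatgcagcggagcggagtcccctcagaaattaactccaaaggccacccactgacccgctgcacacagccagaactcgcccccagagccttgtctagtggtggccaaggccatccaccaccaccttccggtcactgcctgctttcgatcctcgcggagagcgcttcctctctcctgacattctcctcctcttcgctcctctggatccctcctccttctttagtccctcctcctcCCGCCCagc
Erbb2: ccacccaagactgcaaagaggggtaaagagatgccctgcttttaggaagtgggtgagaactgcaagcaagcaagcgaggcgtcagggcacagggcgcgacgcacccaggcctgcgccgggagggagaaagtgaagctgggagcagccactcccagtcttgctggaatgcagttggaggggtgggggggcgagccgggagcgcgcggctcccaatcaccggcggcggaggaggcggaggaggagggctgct
Tgfa: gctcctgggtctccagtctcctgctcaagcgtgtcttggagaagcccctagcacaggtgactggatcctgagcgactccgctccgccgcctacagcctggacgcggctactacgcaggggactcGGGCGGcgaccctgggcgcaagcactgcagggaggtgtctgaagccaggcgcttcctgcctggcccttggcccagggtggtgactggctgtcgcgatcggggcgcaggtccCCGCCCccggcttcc
Btc: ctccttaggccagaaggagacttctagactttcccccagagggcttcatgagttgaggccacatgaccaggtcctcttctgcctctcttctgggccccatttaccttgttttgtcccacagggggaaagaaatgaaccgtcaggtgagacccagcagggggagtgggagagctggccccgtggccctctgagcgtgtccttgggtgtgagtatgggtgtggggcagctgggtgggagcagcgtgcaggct
These windows were rich in G and C, with 60.8% for Egfr, 66.0% for Erbb2, 69.2% for Tgfa and 59.6% for Btc, against a median of 52.4% over all 32851 windows. The GC box was found at 1 place for Egfr and at 2 places for Tgfa, and 32.7% of all windows held it. TATAAA, the TATA box (12.4% of all windows), TGANTCA, the AP-1 site (6.75%), and CACGTG, the E-box of Myc and related factors (6.02%), were searched on both strands and were not found in these 4 windows. The window of Epgn held 1 TATAAA.

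Median intensity lay between 159 and 164 on the 6 arrays. Background was taken, for each array, as the 95th percentile of the values of olfactory and vomeronasal receptor genes, and lay between 163 and 192, highest on the array of Msi1 KO replicate 1. The brightest Msi1 probe set averaged 146 ± 20.95 in Msi1 KO and 184 ± 63.6 in wt arrays (SD, n = 3 each). It was below background on wt replicates 1 and 2, at 144 and 150, and read 257 on wt replicate 3. Of the Msi1 KO arrays, with 141, 168 and 127, only replicate 2 was above background. The other Msi1 probe sets were below background on all arrays. These probe sets do not check the genotype labels, because their place relative to the deleted part is not known here. All 10 epithelial markers, such as Epcam and Krt19, were above background on average, as in cells of an epithelial tumour. Fibroblast markers (9 of 9) and macrophage markers (8 of 8) were also above background, so the samples held RNA of other cells too. The array of wt replicate 3 showed a female pattern, with Xist at 6226 and the Y-linked gene Eif2s3y at 88.2. The other 5 arrays showed a male one, with Xist between 131 and 387 and Eif2s3y between 716 and 944. By this pattern wt replicate 3 and the other wt samples were not from 1 animal, and for the other samples this is not known.

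The comparison of Msi1 KO with wt arrays asked which of these genes differ with the loss of Msi1, an RNA-binding protein of progenitor and tumour cells. No receptor or ligand gene differed between the genotypes beyond the spread of the arrays. In the fit across all 45037 probe sets, 0 of the 9 genes had an adjusted p under 0.05 (limma, Benjamini-Hochberg, adjusted p = 0.9997 for each), where 0.0% of all probe sets were called. At an unadjusted p under 0.05 the count was also 0 of 9, against 3.46% of all genes and 3.01% of all probe sets, and the smallest unadjusted p was 0.234, for Tgfa. The groups overlapped for all 9 genes, while they did not overlap for 8.28% of all genes. Means were lower in Msi1 KO arrays for 7 of the 9 genes, with a median log2 difference of -0.06, against 49.7% of all genes and a median of 0.00. Exact two-sided permutation tests over the arrays gave p between 0.4 and 1.0, where the smallest p that 3 against 3 arrays allow is 0.1.

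**Figure D1:**
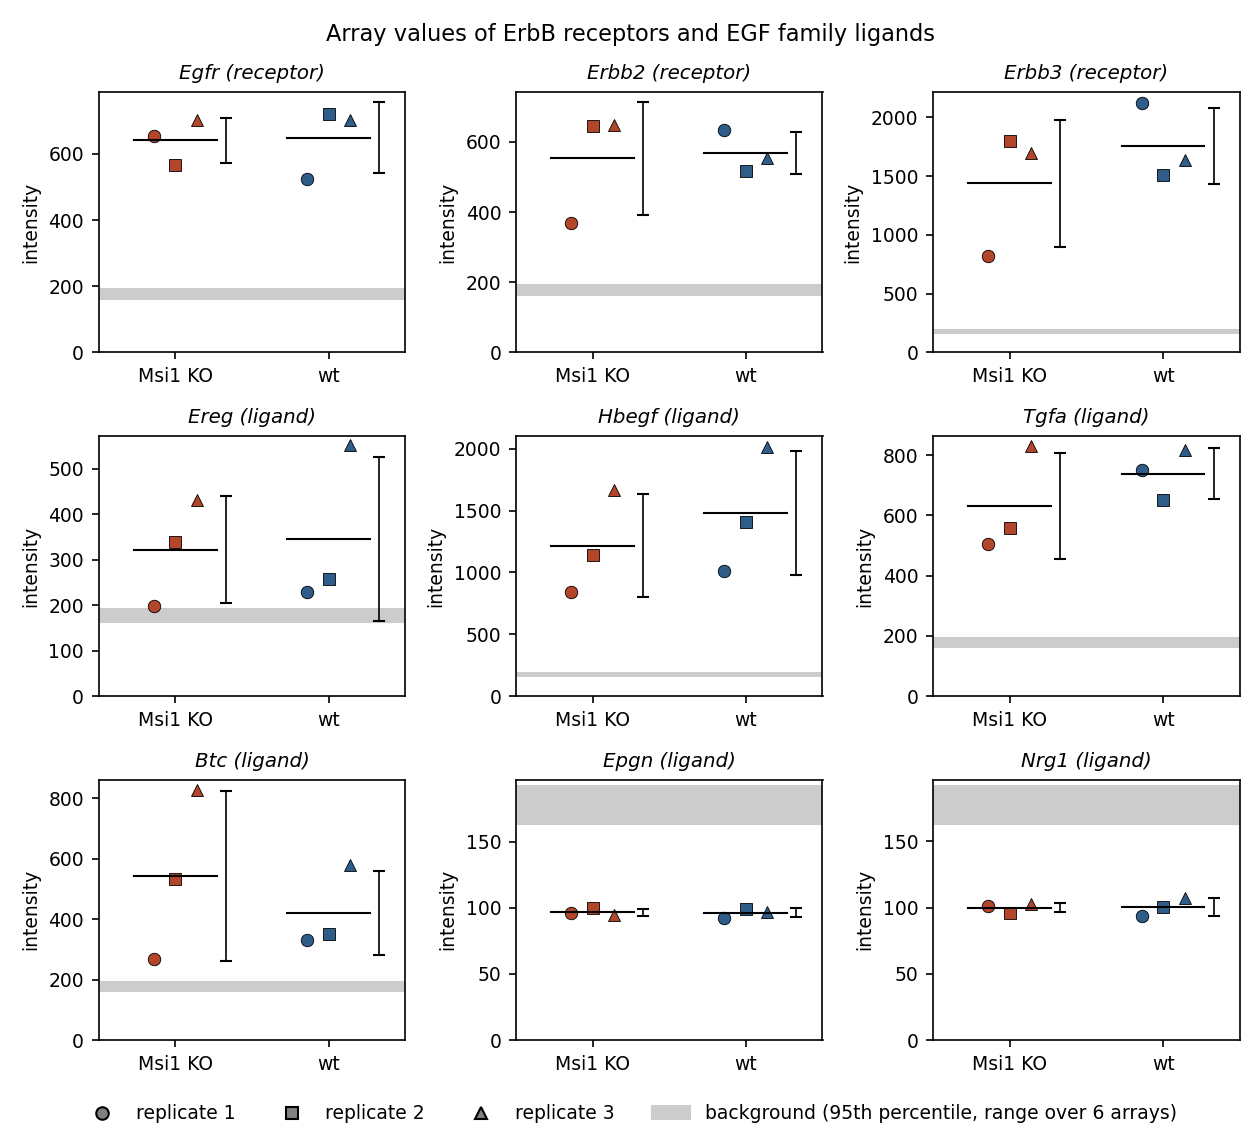
Array values of the 9 measured genes, as deposited intensity on a linear axis that starts at 0. Points are arrays, with Msi1 KO left of wt and a marker shape for each replicate number, lines are group means, bars are SD (n = 3), and the grey band is the range of the array background. The groups overlap in every panel, and Epgn and Nrg1 lie below the band.

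Among the receptors, Egfr, the receptor of most EGF family ligands, was the most even over the arrays. At its brightest probe set it read 653, 567 and 704 in Msi1 KO arrays and 525, 722 and 701 in wt arrays, in the order of replicates 1 to 3. The lowest and the highest of these 6 values were both from wt arrays. The log2 difference was -0.01 ± 0.15 (SE), with a 95% interval of -0.37 to 0.35. Egfr had 7 probe sets, and 3 of them were above background on all 6 arrays. The other probe sets differed by -0.10 to 0.08.

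Erbb2, the partner receptor without a ligand, read 368, 645 and 648 in Msi1 KO arrays and 635, 518 and 554 in wt arrays. Msi1 KO replicate 1 stood below the other arrays, and the other Msi1 KO arrays stood above all 3 wt arrays. The log2 difference of -0.08 ± 0.23 (SE, 95% interval -0.61 to 0.45) became 0.19 without Msi1 KO replicate 1.

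Erbb3, the neuregulin receptor, had the widest spread of the receptors. It read 820.5, 1799.99 and 1701 in Msi1 KO arrays and 2118, 1507 and 1638 in wt arrays. Msi1 KO replicate 1 was again the lowest array, and the highest was wt replicate 1. The means were 1441 ± 539 in Msi1 KO and 1754 ± 322 in wt arrays (SD, n = 3 each). Of the 9 genes it had the most negative log2 difference, -0.35 ± 0.30 (SE, 95% interval -1.06 to 0.36; exact permutation p = 0.6), and without Msi1 KO replicate 1 this was 0.01.

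The array of Msi1 KO replicate 1 also differed in markers of other cells. The summed level of the 10 epithelial markers was lowest there, at 53353, with a range of 53353 to 74375 over Msi1 KO arrays and 56754 to 65138 over wt arrays. The sum of the 8 macrophage markers was highest there, at 36353, with ranges of 22138 to 36353 in Msi1 KO and 26145 to 30111 in wt arrays. Fibroblast markers (9 measured) were likewise highest there, at 59953, with ranges of 41399 to 59953 and 47922 to 50313 in Msi1 KO and wt arrays. The means of other lists lay to one side between the genotypes, although no marker passed the adjusted threshold. All 8 measured markers of acinar cells, the enzyme-secreting cells of the pancreas, had lower means in Msi1 KO arrays, with a median log2 difference of -1.42. For Cela3b and Rnase1 every Msi1 KO value lay below every wt value, where the groups did not overlap for 8.28% of all genes. Sums of the 8 acinar markers ranged from 12484.5, on Msi1 KO replicate 1, to 34096 in Msi1 KO arrays and from 34439.5 to 56056 in wt arrays. All 6 endothelial markers had higher means in Msi1 KO arrays (median 0.30), with sums of 4434 to 6618, highest on Msi1 KO replicate 1, against 3846 to 5104 in wt arrays. The 8 T and NK cell markers, 4 of them above background on average, were likewise all higher in mean (median 0.28), with sums of 1571 to 2149.7 in Msi1 KO and 1256 to 1544 in wt arrays. The 4 measured B cell markers were all higher in mean (median 0.51) and the 3 measured adipocyte markers all lower (median -0.39). No listed marker was at 0, and the part of these cells in the receptor and ligand values was not tested. In such bulk samples, fewer cells of a type and less RNA per cell cannot be told apart.

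Ligand genes differed more between arrays of one genotype than between genotypes. Hbegf, which encodes heparin-binding EGF-like growth factor, was measured by 2 probe sets above background. The brighter one read 838, 1145 and 1665 in Msi1 KO arrays and 1013, 1410.5 and 2012 in wt arrays. Replicate 3 was the highest array of each genotype and replicate 1 the lowest. The means were 1216 ± 418 in Msi1 KO and 1479 ± 503 in wt arrays (SD, n = 3 each), a log2 difference of -0.28 ± 0.31 (SE, 95% interval -1.01 to 0.44; exact permutation p = 0.5). The difference was -0.04 without Msi1 KO replicate 1, -0.03 without wt replicate 3, -0.54 without Msi1 KO replicate 3 and -0.53 without wt replicate 1. The other probe set gave -0.25 ± 0.26 (SE).

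Tgfa, which encodes transforming growth factor alpha, a ligand of Egfr, read 506, 557 and 831 in Msi1 KO arrays and 750.25, 651 and 816 in wt arrays. The highest of the 6 values was from an Msi1 KO array, although the other Msi1 KO arrays stood below all 3 wt arrays. The means were 631 ± 175 in Msi1 KO and 739 ± 83.2 in wt arrays (SD, n = 3 each). This gave a log2 difference of -0.25 ± 0.20 (SE, 95% interval -0.72 to 0.21; exact permutation p = 0.4). The 3 probe sets of Tgfa did not point one way, with 0.08 and -0.02 at the dimmer ones, and the average over them was -0.07. At the brightest one the difference was -0.11 without Msi1 KO replicate 1 and -0.47 without Msi1 KO replicate 3.

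Btc encodes betacellulin, a ligand of Egfr and of Erbb4. It was the only one of the 7 genes above background with a higher mean in Msi1 KO arrays. Its values were 268, 532 and 828 in Msi1 KO arrays and 330.0, 349 and 580 in wt arrays. Both the lowest and the highest array were Msi1 KO arrays, a 3.09-fold range within that genotype. The log2 difference was 0.27 ± 0.40 (SE, 95% interval -0.67 to 1.22; exact permutation p = 0.7). It was -0.10 without Msi1 KO replicate 3 and 0.71 without Msi1 KO replicate 1. The second probe set, below background on all arrays, gave 0.17 ± 0.18 (SE).

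Ereg encodes epiregulin, another ligand of Egfr and Erbb4. It was near background in some arrays and clear in others, with 198, 339 and 430.5 in Msi1 KO arrays and 228, 257 and 553 in wt arrays. The highest array was wt replicate 3 and the lowest Msi1 KO replicate 1, where background was 192. The log2 difference of -0.06 ± 0.39 (SE, 95% interval -0.96 to 0.85; exact permutation p = 1.0) was 0.26 without Msi1 KO replicate 1 and 0.34 without wt replicate 3.

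Epgn, the gene of epigen, and Nrg1, the gene of neuregulin 1, gave no value above background at their single probe sets. Epgn ranged from 94.3 to 99.6 in Msi1 KO and from 92.6 to 99.0 in wt arrays. Nrg1 lay between 96.2 and 103 in Msi1 KO and between 93.9 and 107 in wt arrays. At this level a difference between the genotypes was not detectable, and other transcripts of Nrg1, a gene with many isoforms, were not measured by this probe set.

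**Figure D2:**
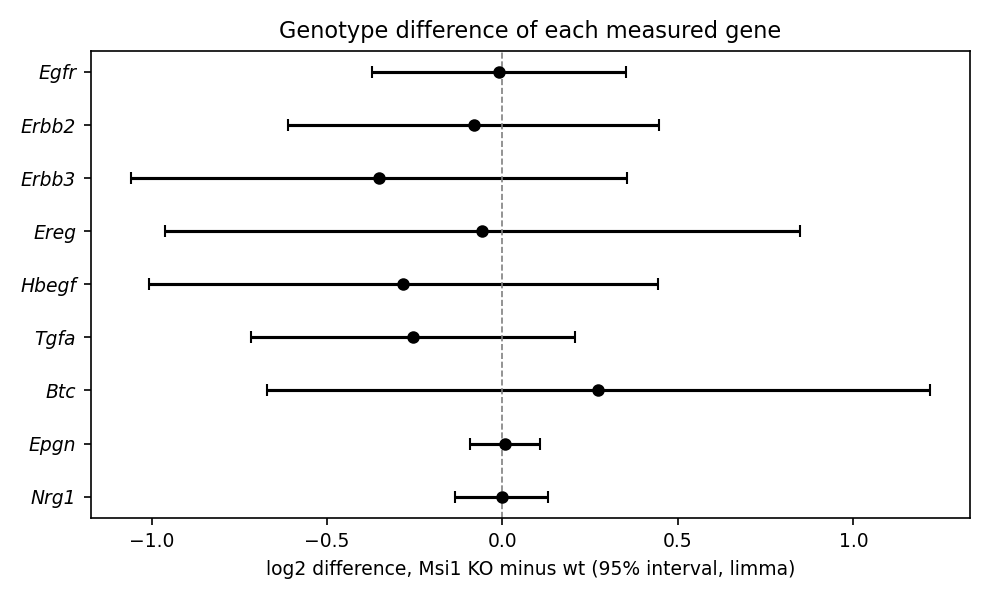
Log2 difference of each measured gene, Msi1 KO minus wt, on the log2(intensity + 1) scale, with limma's 95% interval from 3 arrays of each genotype. All 9 intervals hold 0, and those of Btc and Ereg are the widest, with SEs of 0.40 and 0.39.

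The spread between arrays of one genotype was large for most of these genes. The within-genotype SD on the log2 scale was 0.66 for Btc, 0.63 for Ereg, 0.49 for Hbegf and 0.48 for Erbb3. These SDs stood at percentiles 98.7, 98.5, 97.2 and 96.9 of all 18193 genes. The median within-genotype SD was 0.48 over the 7 genes above background on all arrays, and 0.14 over the 10921 genes of the array that were so.

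The 4 ligands above background shared the replicate number of their highest array within each genotype, but not 1 highest array. Of the 6 arrays, wt replicate 3 was the highest for Ereg and Hbegf, and Msi1 KO replicate 3 for Tgfa and Btc. At the probe sets used, replicate 3 was the highest array of both genotypes for all 4 ligand genes above background, Ereg, Hbegf, Tgfa and Btc. It was so for 0 of 3 receptor genes. This contrast depended on the probe set. A dimmer Tgfa probe set, above background on all arrays, read 209, 208 and 196 in Msi1 KO arrays, lowest in replicate 3. A second Egfr probe set above background was highest in replicate 3 of both genotypes, at 515 and 530. The second probe sets of Hbegf and Btc had the order. Over all genes above background on the 6 arrays this order was found for 15.4%. The order was not planned and was chosen after the values were seen, so this share is no test of it. The replicate numbers were not taken to pair samples. Msi1 KO replicate 1 was the lowest of the 6 arrays for 6 of the 7 receptor and ligand genes above background, Egfr being the exception. This was so for 33.2% of all genes above background. The epithelial marker list was highest in replicate 3 of each genotype too, with sums of 74375 in Msi1 KO and 65138 in wt arrays, and 5 of its 10 genes had this order. The array of wt replicate 3 is the one with the female pattern. Their part in the ligand values was not tested.

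Of 12 genes that ErbB signalling is known to induce, 8 (66.7%) were highest in replicate 3 of both genotypes. This order, chosen after values of these arrays were seen, was found for 15.4% of genes above background. The 12 genes were not filtered by background, and over all genes without a filter the share was 12.2%. The share was 33.3% for 18 inhibitors and turnover genes, 31.8% for 22 adaptors and effectors and 28.6% for 7 genes of ligand shedding. The order was found for 0 of 5 other family genes and 0 of 6 receptor partners and carriers. The 8 target genes were Fosl1, Dusp6, Phlda1, Etv4, Spry4, Plaur, Ccnd1 and Myc. Fosl1, which encodes the AP-1 factor Fra-1, is given as an example chosen after its values were seen. It read 139, 185 and 383 in Msi1 KO arrays and 154, 163 and 321 in wt arrays. Only 2 of these Msi1 KO values and 1 of the wt values were above background. Dusp6, a phosphatase that limits ERK, read 2189, 2729 and 2939 in Msi1 KO arrays and 2650.3, 2639.7 and 3242 in wt arrays, and was likewise chosen afterwards. Egr1, Fos, Etv5 and Ier3 did not have this order.

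**Figure D3:**
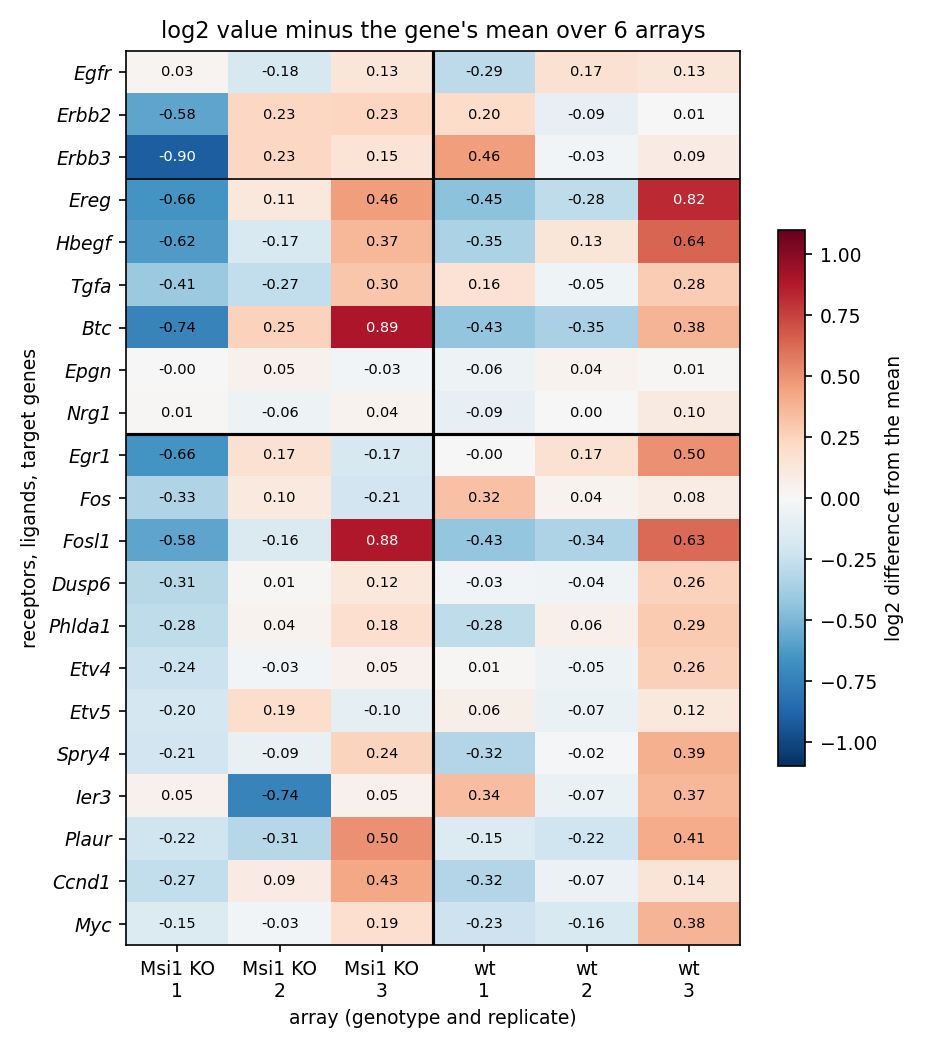
Heat map of log2(intensity + 1) minus each gene's mean over the 6 arrays, with arrays in columns (Msi1 KO left, wt right) and the 3 receptors, 6 ligands and 12 target genes in rows from top to bottom. The 4 ligands above background are positive in replicate 3 of both genotypes, from 0.28 for Tgfa in wt to 0.89 for Btc in Msi1 KO, while Erbb3 is at -0.90 in Msi1 KO replicate 1.

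Likeness to other genes was measured as the root mean square difference between log2 profiles centred on each gene's mean over the 6 arrays, searched over 18192 other genes. For Erbb3, the receptor of largest SD, the nearest genes were Rap1gap, which encodes a GTPase-activating protein for Rap1, at 0.08, and Wwc1, the gene of the Hippo pathway protein Kibra, at 0.08. They were followed by Cdkn2a, a tumour suppressor gene that encodes cell cycle inhibitors, at 0.10, Abcc3, a transporter of organic anions, at 0.11, and Rassf7 at 0.12. Rap1gap read 568, 1071 and 1095 in Msi1 KO arrays and 1259, 983 and 1048 in wt arrays, so it shared the low value of Msi1 KO replicate 1. Erbb2 was at 0.18 from Erbb3. For Btc, the ligand of largest SD, the nearest were Hsph1, a heat shock protein, at 0.17, St3gal6, a sialyltransferase, at 0.17, Tspan2, a tetraspanin, at 0.18, Slc20a1, a phosphate transporter, at 0.20, and Acsm3 at 0.21. Among the ligands, Ereg and Hbegf were 0.23 apart and Ereg and Btc 0.26.

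Genes that act around the receptors were read from 6 lists, and 70 of 75 genes were measured. With limma 0 of 70 had an adjusted p under 0.05 and 1 an unadjusted p under 0.05, where 3.46% of all genes had one. The groups did not overlap for 5 of 70, or 7.14%, against 8.28% of all genes. Means were lower in Msi1 KO arrays for 48 of the 70 (68.6%), with a median log2 difference of -0.06. The 70 genes were not filtered by background. The share was 49.7% of all genes and 53.4% of the genes above background on all arrays. The other family genes Erbb4, Egf, Nrg2 and Nrg3 were below background on all arrays, and Nrg4 was above it on 1 wt array alone. Their median difference was -0.01, with Nrg4 at -0.19 ± 0.12, Nrg3 at 0.04 ± 0.04 and Egf at -0.05 ± 0.06 (SE). With 1 array left out Nrg4 ranged from -0.32, without Msi1 KO replicate 2, to -0.11, without wt replicate 1, and Nrg3 from 0.02, without Msi1 KO replicate 3, to 0.08, without Msi1 KO replicate 2. Egf was at 0.01 without Msi1 KO replicate 3.

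The gene with an unadjusted p under 0.05 was Adam17, which encodes the main protease that releases Tgfa, Hbegf, Ereg and Areg proteins from the membrane. It read 1127, 954 and 1003 in Msi1 KO arrays and 777, 905 and 869 in wt arrays. Every Msi1 KO value lay above every wt value. The log2 difference was 0.27 ± 0.12 (SE; unadjusted p = 0.0495, adjusted p = 0.9997 with limma; exact permutation p = 0.1), which is no call. Of the 7 genes of ligand shedding 3 had higher and 4 lower means in Msi1 KO arrays. Rhbdf2, a partner of Adam17 in its transport, was at -0.12 ± 0.10 and the protease inhibitor gene Timp3 at 0.32 ± 0.32 (SE). Timp3 was at -0.01 without wt replicate 1 and 0.55 without Msi1 KO replicate 3, and Rhbdf2 at -0.07 without wt replicate 3. With probe sets averaged Adam17 was at 0.15.

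Of 22 measured adaptors and effectors 6 had higher and 16 lower means, with a median of -0.09. The genotypes did not overlap for 3 of the 22, Plcg1, Grb2 and Akt2, and for 8.28% of all genes. Plcg1, a phospholipase bound by the receptors, was at -0.16 ± 0.10, and the adaptors Shc1 and Gab1 were at 0.19 ± 0.12 and -0.21 ± 0.14 (SE). With probe sets averaged Plcg1 was at -0.04 and Gab1 at -0.11. Gab1 was at -0.09 without wt replicate 1 and -0.14 without Msi1 KO replicate 2, and Shc1 at 0.10 without Msi1 KO replicate 3. Grb2, the adaptor that recruits Sos proteins, was at -0.11 ± 0.10 and the kinase gene Akt2 at 0.10 ± 0.09 (SE). Both were named after their values were seen. Another 5 genes of this list were not analysed here.

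Of 18 inhibitors and turnover genes 5 had higher and 13 lower means, with a median of -0.06. Errfi1, a feedback inhibitor of ErbB kinases, read 2780.03, 2219 and 3530 in Msi1 KO arrays and 4712, 2883 and 3431 in wt arrays. The highest value was from wt replicate 1, and the groups overlapped, with a log2 difference of -0.37 ± 0.22 (SE). It was -0.17 without wt replicate 1 and -0.20 without Msi1 KO replicate 2. Sh3kbp1, an endocytic adaptor that binds Cbl, was at 0.28 ± 0.15 and Socs5, a suppressor of cytokine and Egfr signalling, at -0.27 ± 0.22 (SE). Socs5 was at -0.05 without Msi1 KO replicate 1, -0.13 without wt replicate 3 and -0.42 without Msi1 KO replicate 3, and Sh3kbp1 at 0.13 without wt replicate 1.

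The 6 receptor partners and carriers had 3 higher and 3 lower means. Gpc1, a heparan sulphate proteoglycan, read 1181, 1106 and 959 in Msi1 KO arrays and 1249, 1261 and 1246 in wt arrays. Its groups did not overlap, at -0.22 ± 0.11 (SE; exact permutation p = 0.1), and the difference was -0.13 without Msi1 KO replicate 3. Cd44, a membrane glycoprotein, was at -0.05 ± 0.08 and Muc4, a mucin that binds Erbb2, at 0.28 ± 0.48 (SE), with 188, 785 and 264 in Msi1 KO arrays and 227, 282 and 342 in wt arrays. Msi1 KO replicate 2 had the highest Muc4 value, and without it the difference was -0.33. Cd44 ranged from -0.10, without Msi1 KO replicate 1, to -0.01, without wt replicate 3.

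Of the 12 target genes 3 had higher and 9 lower means, with a median of -0.06. Egr1, an immediate early transcription factor, read 1174, 2089 and 1644 in Msi1 KO arrays and 1851, 2082 and 2628 in wt arrays, a log2 difference of -0.44 ± 0.23 (SE). Fos, another immediate early gene, was at -0.29 ± 0.15 and Ier3, a stress and growth factor response gene, at -0.42 ± 0.23 (SE). The groups overlapped for each of them. Egr1 was at -0.22 without Msi1 KO replicate 1 and Ier3 at -0.16 without Msi1 KO replicate 2.

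**Figure D4:**
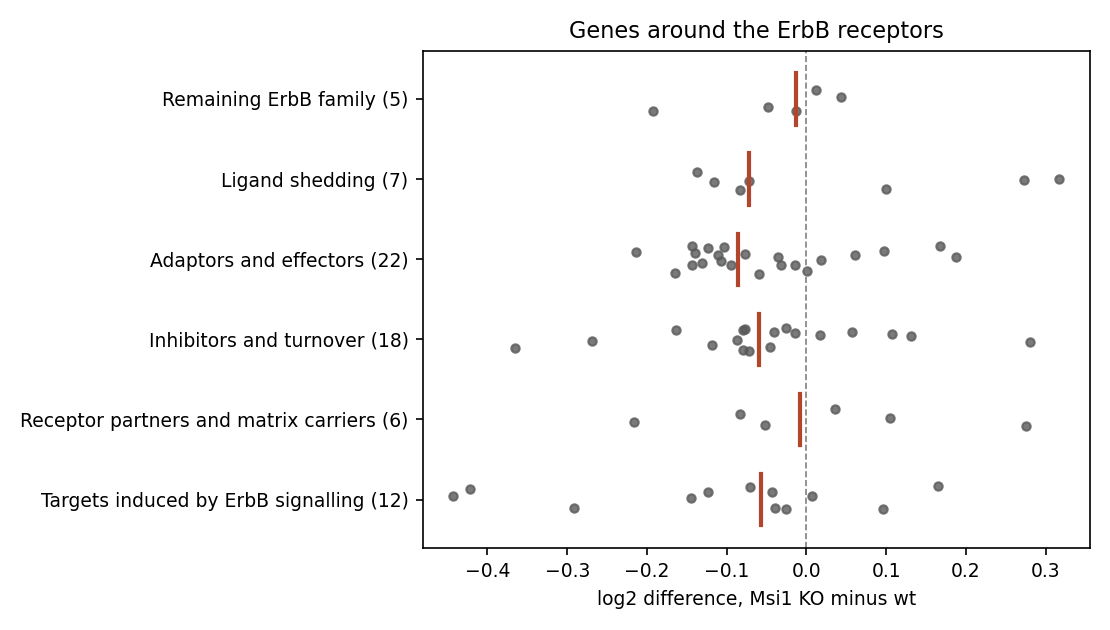
Log2 difference, Msi1 KO minus wt, of the 70 measured genes around the ErbB receptors, by list, with the number of measured genes in brackets. Points are genes, scattered vertically for display, and red lines are list medians, which run from -0.09 for adaptors and effectors to -0.01 for receptor partners and carriers.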

How the data were processed

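Biotin-labelled RNA from 3 Msi1 KO and 3 wt samples was put on Affymetrix arrays. Per the submitters' processing notes the authors made the deposited intensity values, 45101 probe sets in 1 table, with GCRMA (background correction, quantile normalization and summary of probes); version and settings are not given in the sources used here. The deposited intensities are linear, with array minima between 51.2 and 59.9, and compression of dim values would shrink their differences. The 64 control probe sets were left out. A platform annotation named the probe sets, with symbols updated through Entrez identifiers and RefSeq (34741 entries matched).

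A linear model of log2(intensity + 1) was made in R 4.3.3 by limma 3.58.1 (genotype as the only term, eBayes with trend), with Benjamini-Hochberg adjustment over 45037 probe sets at 0.05; the fit was tested on simulated data. Exact permutation tests used scipy 1.17.1 and all 20 assignments. SE is limma's moderated one. The 9 genes and all lists were chosen with earlier results of these data known. Named genes are the 9, up to 3 of each list by smallest unadjusted p, and the 5 nearest profiles of 1 receptor and 1 ligand. Fosl1, Dusp6, the other target genes named for their array order, Grb2, Akt2 and Ighm were chosen after their values were seen. So was the order with replicate 3 highest. Alternatives covered pseudocount, filter, normalization, array weights, prior variance, replicate block, arrays left out and the probe set per gene.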

Additional observations from a re-analysis of the deposited data

How the results depend on the processing

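Of 158 recomputed differences of the 9 genes, 139 kept their direction and 19 changed it, all of them between values that passed no threshold; adjusted p was at least 0.817 under every alternative. Hbegf and Tgfa stayed below 0, though close to it under some alternatives. With 1 array left out, Hbegf ranged from -0.54 to -0.032, Tgfa from -0.47 to -0.11, Egfr ranged from -0.16 to 0.075, Erbb2 from -0.22 to 0.19, Erbb3 from -0.55 to 0.012, Ereg from -0.30 to 0.34, Btc from -0.10 to 0.71, Epgn from -0.020 to 0.028 and Nrg1 from -0.049 to 0.044 (log2). Egfr turned to 0.0035 with quantile normalization, 0.0089 with cyclic loess and 0.0091 with probe sets averaged. With array weights, which gave Msi1 KO replicate 1 the lowest weight (0.34), Erbb2 turned to 0.14, Ereg to 0.038 and Epgn to -0.0094; Epgn was -0.00015 with cyclic loess. Timp3 was -0.048 with array weights, and with 1 array left out Timp3 ranged from -0.012 to 0.55, Egf from -0.080 to 0.0056 and Muc4 from -0.33 to 0.70. Epgn and Nrg1 did not pass the filters at 7 and 8, so the genes higher in Msi1 KO were 1 under both, and between 1 and 5 with an array left out. Adjusted calls were 0 under every alternative but 1, without Msi1 KO replicate 1, when 1 probe set, of the immunoglobulin gene Ighm, passed (adjusted p = 0.0426). Unadjusted calls, 1355 in all, were 546 with the filter at 8, 2153 with array weights, 605 with probe sets averaged (fewer rows were tested in the first and last), 886 without wt replicate 1 and 2723 without Msi1 KO replicate 1. The count of genes around the receptors with lower Msi1 KO means, 48, ranged from 39 to 54 with an array left out. With the replicate number as a block unadjusted calls were 2120, and the block changed no adjusted call. It lowered the SE of Hbegf from 0.31 to 0.095, of Ereg from 0.39 to 0.16 and of Btc from 0.40 to 0.20. It raised that of Erbb2 from 0.23 to 0.24 and of Erbb3 from 0.30 to 0.33. Deviations of same-numbered arrays correlated at 0.17, -0.09 and 0.28, and those of differently numbered arrays between -0.26 and 0.06. The numbers were not taken to pair samples, and whether they do is not known here. The order with replicate 3 highest was found for all 4 ligands and for a count of 8 of 12 target genes under the 3 normalizations. The counts were the same with probe sets averaged and with the probe set of largest SD. For the 4 ligands the latter was the probe set already used, and the dimmer Tgfa probe sets did not have the order. Signal over background limits Epgn, Nrg1 and, on some arrays, Ereg. The causes of these changes were not tested unless stated.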
